A study of Mus musculus with 26 samples.

Results

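Ms4a7, Ms4a6b, Ms4a6c, Ms4a6d, Ms4a4a and Ms4a4c were followed in 18 libraries of microglia sorted from the mouse somatosensory cortex, by stage and by treatment of the mother. They were listed by symbol, with earlier results of these data known. They are 6 of 19 genes with a symbol that starts with Ms4a, among 31053 genes in the count tables, and the other 13 had at most 174 UMIs each. All mice were wild-type C57Bl/6N. Dams received saline or poly(I:C), a double-stranded RNA mimic of a virus that sets off maternal immune activation (MIA), at E12.5. Cells were collected at stages labelled E13, E15 and postnatal day 14 (P14), after removal of the meninges. The labels give whole embryonic days, and the study places both embryonic stages later within those days, the first a day after the injection. Cells were sorted as positive for Cd11b and Cx3cr1 and low for Cd45. This gate leaves out cells with high Cd45, as many border macrophages have. The 6 groups were E13 saline, E13 MIA, E15 saline and E15 MIA with 3 libraries each, P14 saline with 4 and P14 MIA with 2. Replicate 3 of P14 saline was given as a female library (3F) and a male library (3M), and all other libraries were labelled as mixed sex. Embryonic libraries came from pooled embryos. For P14 the study counts as many mice as libraries. The labels give 4 of the P14 libraries as mixed sex, so whether those were pools is unclear. The labels do not say which libraries share a litter, so p-values measure the spread between libraries only. RNA was counted from the 3′ end of each transcript as unique molecular identifiers (UMIs).

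Ms4a genes encode small proteins that cross the cell membrane several times. The best known members are Ms4a1, which encodes the B cell antigen CD20, and Ms4a2, which encodes the beta chain of the mast cell receptor for IgE. Several others are expressed in macrophages. In the brain, Ms4a7 is used as a marker of macrophages at the borders of the tissue (meninges, perivascular space, choroid plexus), which share an origin in the yolk sac with microglia and also carry Mrc1, Pf4 and Dab2. Microglia are told apart by genes such as P2ry12 and Tmem119. Ms4a4a is a surface protein of tissue macrophages that associates with the receptor dectin-1, and in humans the region that holds MS4A4A and MS4A6A is linked to the amount of soluble TREM2. Ms4a4c is commonly listed among the interferon-responsive genes of mouse myeloid cells.

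All 19 Ms4a genes lie together on mouse chromosome 19, and the 6 genes studied here span 283811 bases (chr19:11321039-11604849 in mm10, GRCm38), an interval with 8 Ms4a genes in all. Ms4a7 (chr19:11321039-11336146) and Ms4a6d (chr19:11586604-11604849) are at the ends of this interval and are read from the minus strand. Ms4a4a (chr19:11375523-11392790), Ms4a4c (chr19:11404770-11427246), Ms4a6c (chr19:11469366-11482192) and Ms4a6b (chr19:11516512-11531256) lie between them and are read from the plus strand. The other 2 genes of the interval, Ms4a4b and Ms4a4d, had 126 and 11 UMIs over all 18 libraries. Ms4a14 had 174 UMIs, Ms4a1 had 47, and of the remaining Ms4a genes none had more than 14. Ms4a2 and Ms4a3 had 0 UMIs. The genes described here had 99868 (Ms4a6b), 80178 (Ms4a6d), 60321 (Ms4a6c), 14978 (Ms4a7), 3585 (Ms4a4c) and 1039 UMIs (Ms4a4a). These totals show the depth behind each gene and were not divided by transcript length, so no order of expression between genes is drawn from them.

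The start regions are shown as a description. From E15 to P14 after saline, Ms4a7, Ms4a4a, Ms4a4c and Ms4a6d fell, among the 26.7% of 14232 genes that were lower at an adjusted p under 0.05. Ms4a6c and Ms4a6b, which lie between Ms4a4c and Ms4a6d, did not pass. Shared control of these neighbouring genes was not tested. The 100 bases before the start site are printed from RefSeq (GRCm38.p6), 5′ to 3′ on the strand of the gene. Capitals mark matches to GGAAGT or its reverse complement ACTTCC, a core sequence of sites for PU.1 and related ETS factors, PU.1 being a master regulator of macrophages.
Ms4a7 (chr19:11336147-11336246, minus strand): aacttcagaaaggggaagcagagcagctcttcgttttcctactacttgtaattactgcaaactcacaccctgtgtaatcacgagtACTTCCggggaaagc
Ms4a4a (chr19:11375388-11375487, plus strand): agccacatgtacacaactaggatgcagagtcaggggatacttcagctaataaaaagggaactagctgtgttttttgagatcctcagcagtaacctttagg
Ms4a4c (chr19:11407561-11407660, plus strand): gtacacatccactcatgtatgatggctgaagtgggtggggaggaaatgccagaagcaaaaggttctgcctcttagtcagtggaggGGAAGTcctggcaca
Ms4a6c (chr19:11469268-11469367, plus strand): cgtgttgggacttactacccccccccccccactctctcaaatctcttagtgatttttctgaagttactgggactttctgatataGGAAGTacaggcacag
Ms4a6b (chr19:11518459-11518558, plus strand): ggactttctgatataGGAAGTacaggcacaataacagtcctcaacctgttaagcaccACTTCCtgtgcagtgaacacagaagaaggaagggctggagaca
A match ended within 20 bases of the start site in Ms4a7, Ms4a4c and Ms4a6c, and Ms4a6b had 2 matches farther away. Ms4a4a and an alternative start of Ms4a7 had none. In windows from 250 bases before to 50 after the start, 23.8% of 32851 promoters held at least 1 such match, so a match alone sets none of these genes apart. The windows of Ms4a6c and Ms4a6b were the most alike, with 182 identical bases over an aligned stretch of 221 (82.4%). No window held the interferon-stimulated response element, the interferon-gamma site TTCNNNGAA or the CEBP site TTGCNNAA (either strand), which 3.44%, 8.3% and 10.8% of all promoters held. A MAF half-site, TGCTGA on either strand, was found in Ms4a4a alone, with 2 matches, and in 19.5% of all promoters. Matches are a description of the letters and were not tested for binding. Ms4a6d was not among the promoters used here.

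The libraries held 67847 cells after a filter (500 or more genes detected, mitochondrial UMIs no more than 20%) (13394 at E13, 24554 at E15 and 29899 at P14). The 13 microglia markers were all detected in every library, at a summed level of 9105 to 42170 CPM. A library had between 280 and 6375 cells, 6160925 to 105751888 UMIs and a median of 3682 to 24493.5 UMIs per cell. E13 MIA 1 and E13 MIA 2 stood apart with 280 and 375 cells. Some cell barcodes occurred in more than 1 library. In the pairs of libraries with most shared barcodes, a cell of one library was more alike in expression to the cell of the same barcode in the other library (median correlations of 0.593 to 0.861) than to other cells of that library (0.496 to 0.557), in 66 of 66 or 100 of 100 pairs examined. The fold changes over all cells are therefore also given with a shared barcode kept only in the library where it had most UMIs, a choice made after seeing the data, and clusters were made without the shared barcodes. This removed 1831 cells (2.70%), 1080 of them at P14.

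Of the 6 genes, Ms4a7 had the largest share of its P14 UMIs under shared barcodes. At P14 they held 3.61% of cells but 57.6% of the 403 Ms4a7 UMIs and 9 of 18 Ms4a4a UMIs. The same barcodes held 3.65% of Ms4a6b UMIs, 6.32% of Ms4a6c, 3.75% of Ms4a6d and 19.3% of Ms4a4c UMIs at P14. In P14 saline 3F, 95.05% of Ms4a7 UMIs were under such barcodes, and 257 of the 304 cells concerned shared theirs with E13 MIA 2. In E15 MIA 3 the share was 54.2%, against 16.2% of its cells. At E13 the shared barcodes held 0.216% of Ms4a7 UMIs.

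**Figure D1:**
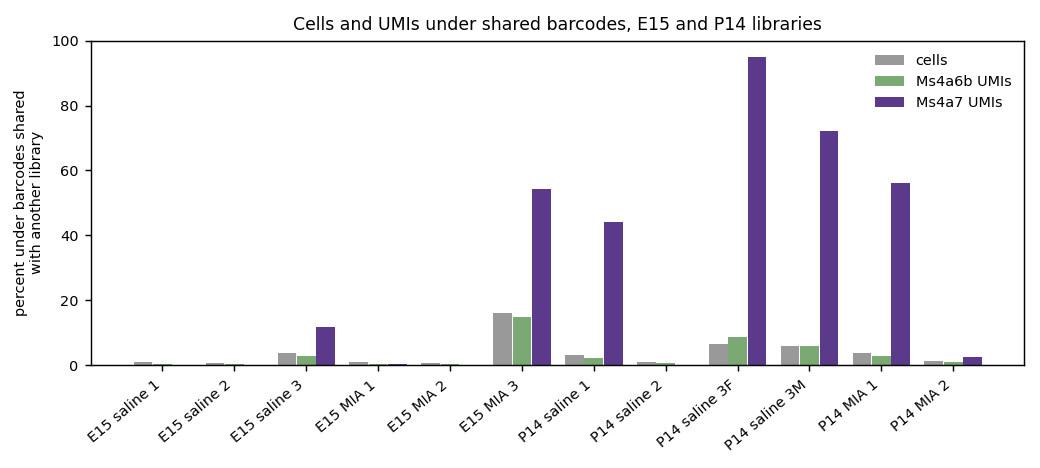
Percent of cells, Ms4a6b UMIs and Ms4a7 UMIs (vertical axis) under barcodes shared with, and deeper in, another library, for each E15 and P14 library. The bars for Ms4a7 reach 95.05% in P14 saline 3F and 54.2% in E15 MIA 3, while those for cells and Ms4a6b reach at most 16.2%.

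Levels are given as CPM, the UMIs of the gene scaled to a common library total. Ms4a7 stood at 83.7, 20.2 and 18.8 CPM in E13 saline 1, 2 and 3 and at 114, 44.1 and 27.2 CPM in E13 MIA 1, 2 and 3. At E15 it had 34.1, 34.8 and 7.81 CPM after saline and 24.5, 38.5 and 8.56 CPM after MIA. At P14 it was at 1.53, 1.90, 4.01 and 3.87 CPM in saline 1, 2, 3F and 3M and at 2.42 and 1.17 CPM in MIA 1 and 2. Every P14 library was below every embryonic library, whereas the E13 and E15 groups overlapped. Without the shared barcodes, E15 MIA 3 fell to 4.36 CPM and the P14 libraries to 0.872, 1.91, 0.216 and 1.15 CPM (saline) and 1.09 and 1.15 CPM (MIA). The 2 libraries with most Ms4a7, E13 saline 1 and E13 MIA 1, also had the highest summed levels of 11 border macrophage markers, at 1996 and 2125 CPM, against 522 to 1125 CPM in the other E13 libraries.

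Ms4a4a followed a similar course at far fewer UMIs. It had 6.28, 1.04 and 1.98 CPM in E13 saline 1 to 3 and 6.89, 3.41 and 2.51 CPM in E13 MIA 1 to 3. At E15 it had 1.95, 1.90 and 0.731 CPM after saline and 1.06, 2.51 and 0.844 CPM after MIA. At P14 its UMIs numbered 1, 3, 4 and 6 in saline 1, 2, 3F and 3M, and 0 and 4 in MIA 1 and 2. The 0 UMIs of P14 MIA 1 allow a level of up to 0.110 CPM (3 counts, counting error only). As for Ms4a7, all P14 libraries were below all embryonic ones.

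Ms4a4c stood at 9.10, 5.90 and 5.02 CPM in E13 saline and 8.86, 14.9 and 7.50 CPM in E13 MIA. The highest of these, E13 MIA 2, also had the highest summed level of 8 monocyte markers (69.5 CPM, with 2 of 8 at 0, against 15.5 to 23.9 CPM in the other E13 libraries). At E15 Ms4a4c had 7.22, 8.85 and 3.63 CPM after saline and 4.92, 7.21 and 6.93 CPM after MIA. At P14 it had 1.04, 2.48, 2.54 and 1.78 CPM after saline and 1.47 and 1.60 CPM after MIA, again below every embryonic library. The share of all genes that separate P14 from the embryonic libraries in this way is not given here.

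The Ms4a6 genes kept to a narrower range. Ms4a6d had 140, 112 and 117 CPM in E13 saline and 147, 123 and 143 CPM in E13 MIA, and 155, 125 and 105 CPM in E15 saline and 131, 137 and 93.0 CPM in E15 MIA. At P14 it had 87.8, 99.7, 94.0 and 87.9 CPM after saline and 93.5 and 106 CPM after MIA. The saline groups of E15 and P14 did not overlap, and the MIA groups did. How many of all genes separate the saline groups was not counted, so nothing particular to Ms4a6d is read from it.

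Ms4a6c stood at 177, 90.5 and 95 CPM in E13 saline and 203, 144 and 116 CPM in E13 MIA, and at 115, 94.5 and 54.1 CPM in E15 saline and 69.6, 94.2 and 52.3 CPM in E15 MIA. At P14 its libraries lay close together, at 66.2, 65.0, 76.3 and 69.1 CPM after saline and 66.2 and 66.0 CPM after MIA. The E13 MIA libraries were all above the E15 MIA libraries. How many of all genes separate these groups was not counted, so nothing particular to Ms4a6c is read from it. Ms4a6b had 198, 131 and 148 CPM in E13 saline, 226, 178 and 155 CPM in E13 MIA, 183, 142 and 146 CPM in E15 saline and 124, 154 and 124 CPM in E15 MIA. At P14 it had 137, 147, 167 and 167 CPM after saline and 137 and 141 CPM after MIA, within the range of the embryonic libraries.

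**Figure D2:**
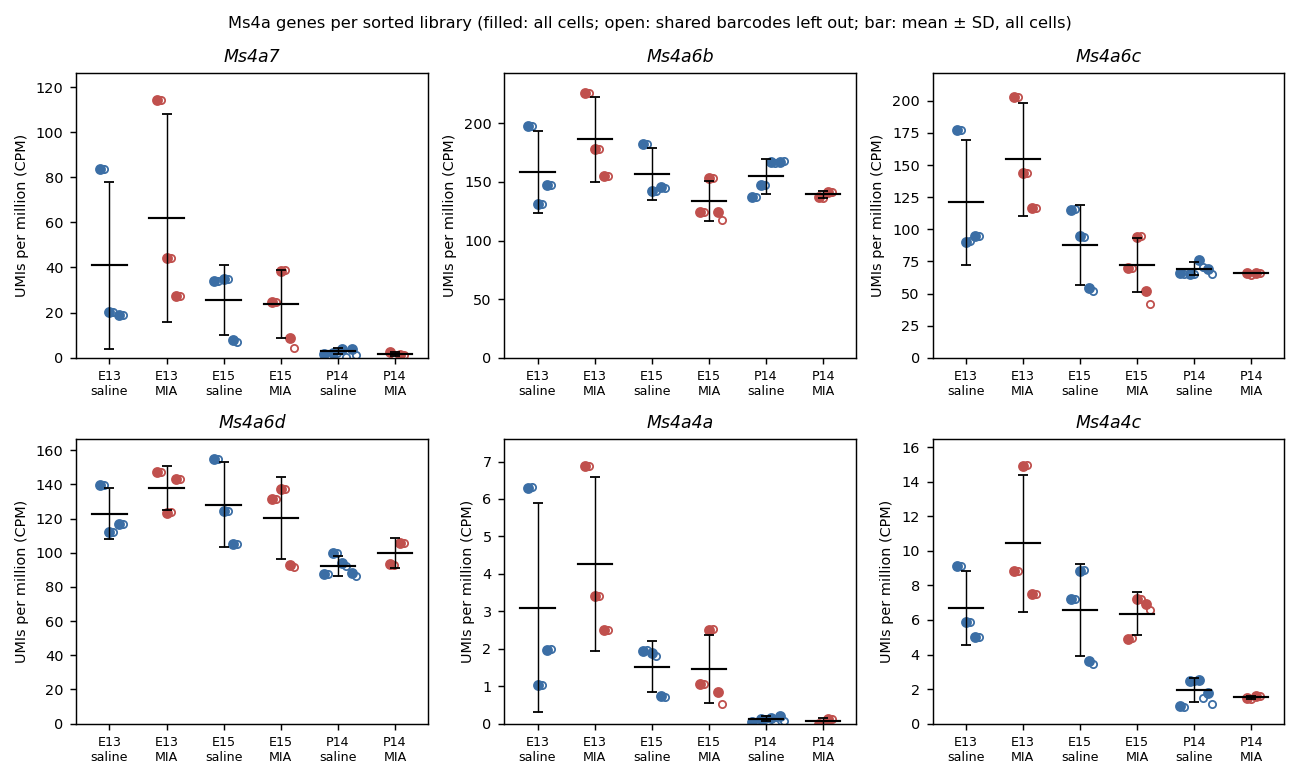
CPM (vertical axis, from 0) of each gene in every library by group, for all cells (filled circles) and without shared barcodes (open circles), blue for saline and red for MIA. Bars show the mean and SD over libraries of all cells. Ms4a7, Ms4a4a and Ms4a4c are lowest at P14, at most 4.01, 0.202 and 2.54 CPM, while Ms4a6b lies between 124 and 226 CPM with all cells, and down to 118 CPM without shared barcodes.

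By group means, Ms4a7 was ordered E13 MIA (61.9 ± 46.3 CPM, SD, n = 3), E13 saline (40.9 ± 37.1, n = 3), E15 saline (25.6 ± 15.4, n = 3), E15 MIA (23.9 ± 15.0, n = 3), P14 saline (2.83 ± 1.29, n = 4) and P14 MIA (1.80 ± 0.887, n = 2). Ms4a4a, Ms4a4c and Ms4a6c had the same order. Without shared barcodes P14 MIA came before P14 saline for Ms4a7 (1.12 and 1.04 CPM), Ms4a4a (0.0621 and 0.0471 CPM) and Ms4a4c (1.52 and 1.5 CPM). Among the embryonic groups, and between the P14 groups, neighbours in this order differed by less than the larger of their SDs. Ms4a6d was ordered E13 MIA (138 ± 12.8 CPM), E15 saline (128 ± 25.0), E13 saline (123 ± 14.8), E15 MIA (121 ± 24.0), P14 MIA (99.7 ± 8.81) and P14 saline (92.4 ± 5.67). For Ms4a6b the means ran from 186 ± 36.1 CPM in E13 MIA to 134 ± 17.0 in E15 MIA, with P14 saline (155 ± 15.0) beside E15 saline (157 ± 22.3), and the ranges of all adjacent groups in its order overlapped.

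To follow the genes through development without MIA, the saline stages were compared with edgeR's quasi-likelihood test over all genes, with Benjamini-Hochberg adjustment and a threshold of 0.05. Between E13 and E15, 0 of 6 Ms4a genes passed, although 28.7% of 14232 genes did. None of the 6 had an unadjusted p under 0.05, and DESeq2 also called 0 (with 31.3% of all genes). Ms4a4a (log2 fold change of -0.99 ± 0.58, SE) and Ms4a7 (-0.66 ± 0.63) had the largest differences, and Ms4a6b (-0.04 ± 0.16), Ms4a4c (-0.02 ± 0.36) and Ms4a6d (0.04 ± 0.15) the smallest. With 1 library left out in turn, Ms4a7 ran from -0.99 to 0.34 and so turned sign, and Ms4a4a from -1.40 to -0.04. Leaving out shared barcodes gave -1.02 for Ms4a4a and -0.67 for Ms4a7, with 0 of the 6 and 29.2% of all genes called.

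Between E15 and P14, 4 of the 6 genes fell after saline, where 53.5% of 14232 genes were called and 26.7% were lower at P14. Without shared barcodes it was the same 4 genes, among 55.3% of all genes, and DESeq2 also called 4, among 53.5%. Ms4a7 had a log2 fold change of -3.38 ± 0.65 (adjusted p = 0.00125), or -4.81 ± 0.76 without shared barcodes (adjusted p = 0.000287). For Ms4a4a the log2 fold change was -3.68 ± 0.70 (adjusted p = 0.00115), or -5.02 ± 0.88 without shared barcodes, resting there on 5 P14 saline UMIs. Ms4a4c fell as well (-1.95 ± 0.35, adjusted p = 0.000850, and -2.33 ± 0.38 without shared barcodes). Ms4a6d fell less (-0.67 ± 0.14, adjusted p = 0.00235, and -0.69 ± 0.14). Ms4a6c did not pass (-0.55 ± 0.27, adjusted p = 0.109, and -0.61 ± 0.27, adjusted p = 0.0776), nor did Ms4a6b (-0.21 ± 0.15, adjusted p = 0.257, and -0.23 ± 0.15).

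Markers of other macrophages moved with these genes. The summed level of 11 border macrophage markers was 566 to 796 CPM in E15 saline and 399 to 492 CPM in P14 saline, with at most 1 marker at 0 in any of these libraries. Of the 11, 6 were lower at P14 (Mrc1, Pf4, Cbr2, Dab2, Stab1 and Folr2), Ccr1 was higher, and their median log2 fold change was -1.59, against 0.04 over all genes tested, of which 26.7% were lower and 26.8% higher. Without shared barcodes 7 were lower (median -1.99). The 8 monocyte markers summed to 21.8 to 26.1 CPM at E15 and 15.7 to 19.6 CPM at P14, with up to 4 of 8 at 0. Neuron markers summed to 313 to 457 CPM and then 14.2 to 31.8 CPM. With clusters of other cell types left out, the log2 fold change of Ms4a7 was -3.45 (adjusted p = 0.00118), that of Ms4a4a -3.75, that of Ms4a4c -2.03 and that of Ms4a6d -0.74. Sums over a library cannot tell fewer macrophages from less RNA per macrophage or per microglial cell. Within microglia-like clusters (described below), the 4 genes that fell also had lower means in P14 saline than in E15 saline. At E15 and P14, Ms4a7 had 8.64 and 1.63 CPM and Ms4a4a 0.490 and 0.0766 CPM. Ms4a4c had 6.16 and 1.70 CPM and Ms4a6d 121 and 91.0 CPM. Ms4a6b (144 and 156 CPM) and Ms4a6c (64.5 and 65.8 CPM) were not lower. These differences within a class were not tested.

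Other gene groups moved in both directions between these stages. Against 26.8% of all genes higher and 26.7% lower, 12 of 13 microglia markers rose from E15 to P14 after saline (median log2 fold change of 1.14, and 0.04 over all genes), and 9 of 12 interferon-responsive genes fell (median -1.81). Of 8 genes around Trem2, the lipid-sensing receptor whose soluble form is linked to the human MS4A region, 5 rose (Adam10, Adam17, Syk, Plcg2 and Inpp5d) and Apoe, which carries lipids, fell (median 0.33). Without shared barcodes 5 rose, with Trem2 in place of Plcg2. With 53.5% of all genes called, nothing is read from the count of this list. These lists were drawn up with earlier results of these data in view.

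The same stages were compared in the offspring of MIA dams. From E13 to E15 after MIA, 1 of 6 genes was called, where 15.2% of 14572 genes were called and 7.80% were lower. Ms4a6c fell by 1.09 ± 0.26 on the log2 scale (adjusted p = 0.0276), and its log2 fold change was -1.16 ± 0.31 without shared barcodes (adjusted p = 0.0370, with 17% of all genes called). That call was not stable. With 1 library left out in turn, it was lost without E13 MIA 1 (adjusted p = 0.0887), E13 MIA 2 (0.0683), P14 MIA 1 (0.0611) or P14 MIA 2 (0.0604). The P14 libraries are not in this contrast and enter only through the scaling and spread of the fit. Over these fits the log2 fold change of Ms4a6c ran from -1.34 to -0.82. With both E13 libraries of few cells left out, which leaves 1 E13 MIA library, it was -0.76. Markers of dividing cells summed to 1291 to 1861 CPM in E13 MIA and 430 to 637 CPM in E15 MIA, and border macrophage markers to 544 to 2125 and 451 to 938 CPM. Their part in the change of Ms4a6c was not tested. DESeq2, which called 25% of all genes, also called Ms4a6b (-0.47, adjusted p = 0.0432), for which edgeR gave -0.46 ± 0.17 (adjusted p = 0.0914). The remaining genes had log2 fold changes of -1.49 ± 0.68 (Ms4a4a), -1.34 ± 0.63 (Ms4a7), -0.67 ± 0.27 (Ms4a4c) and -0.19 ± 0.18 (Ms4a6d), with adjusted p of 0.119 or above. Without shared barcodes the log2 fold changes were -1.58 (Ms4a4a), -1.42 (Ms4a7), -0.71 (Ms4a4c), -0.49 (Ms4a6b) and -0.20 (Ms4a6d), and none of these passed.

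From E15 to P14 after MIA, Ms4a7, Ms4a4a and Ms4a4c fell, 3 of 6, where 27.3% of 14572 genes were called and 14.6% were lower. DESeq2 called 3 among 32% of all genes, and 3 were called without shared barcodes, among 26.5%. Ms4a7 had a log2 fold change of -3.88 ± 0.87 (adjusted p = 0.0131, and -4.47 ± 1.04 without shared barcodes, adjusted p = 0.0160). With 1 library left out in turn, its log2 fold change ran from -4.52 to -3.35. Its call was lost without P14 MIA 1 or P14 MIA 2, where 1 library is left in that group and the spread comes from the other groups. Ms4a4a had -4.57 ± 1.03 (adjusted p = 0.0135, and -4.46 ± 1.10 without shared barcodes, adjusted p = 0.0202), with 4 UMIs in the P14 MIA libraries. Its value was -3.72 without P14 MIA 1, where the call was lost. Without P14 MIA 2 the only P14 MIA library has 0 UMIs, so the -8.79 given there is set by the fit and is no measured fold. The size of this fall rests on a few UMIs. Ms4a4c had -2.17 ± 0.34 (adjusted p = 0.00281, and -2.15 ± 0.33 without shared barcodes). Ms4a6d (-0.40 ± 0.20, adjusted p = 0.173), Ms4a6c (-0.25 ± 0.29) and Ms4a6b (-0.07 ± 0.19) did not pass, nor did they without shared barcodes (-0.40, -0.20 and -0.05). Of the border macrophage markers, Dab2 and Folr2 were lower, and the summed level of the list was 451 to 938 CPM at E15 and 361 to 395 CPM at P14. Whether saline and MIA differed in the change between E15 and P14 was not tested.

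**Figure D3:**
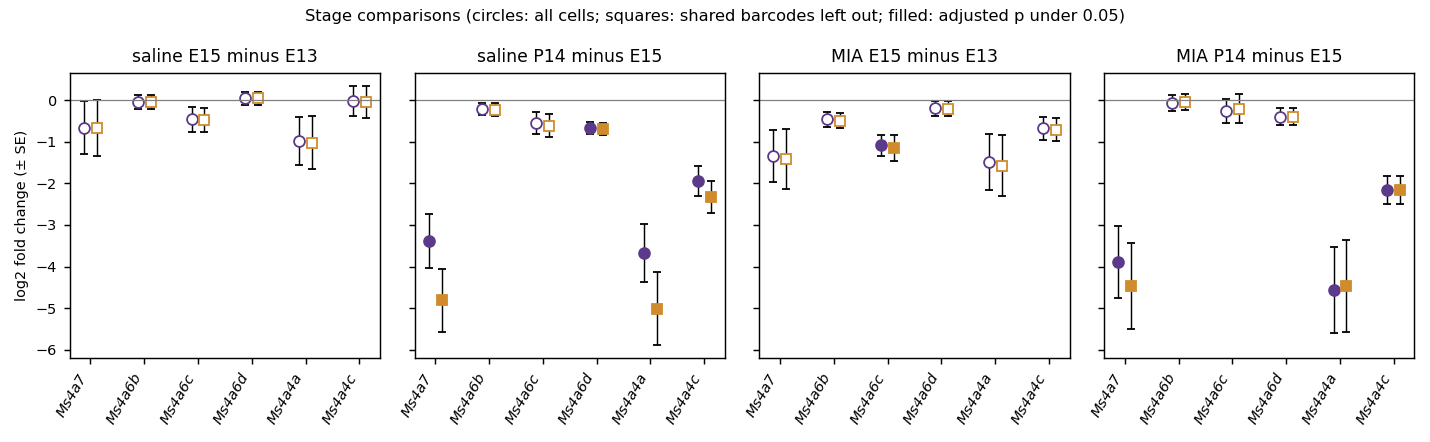
Log2 fold change (vertical axis, with SE) of each gene between stages, for saline and MIA, with all cells (circles) and without shared barcodes (squares), filled where the adjusted p was under 0.05. The largest falls, of Ms4a7 and Ms4a4a from E15 to P14, lie between -3.38 and -5.02, and Ms4a6b changes least from E15 to P14 after saline (-0.21) and MIA (-0.07).

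The effect of MIA itself was then tested at each stage. At E13, 0 of 6 genes passed and 0% of 12994 genes were called by edgeR (101 at an unadjusted p under 0.05, none of them an Ms4a gene, and 2 genes by DESeq2, 0.0154%, again no Ms4a gene). All 6 log2 fold changes were above 0: 0.60 ± 0.64 for Ms4a7, 0.59 ± 0.27 for Ms4a4c (unadjusted p = 0.0608, adjusted p = 1), 0.43 ± 0.63 for Ms4a4a, 0.34 ± 0.28 for Ms4a6c, 0.22 ± 0.19 for Ms4a6b and 0.16 ± 0.14 for Ms4a6d. Between libraries of the same replicate number, MIA was higher in 3 of 3 pairs for each gene but Ms4a4c (2 of 3). How many of all genes were higher in 3 of 3 pairs was not counted. The 6 genes also varied together over the 18 libraries (r of 0.59 to 0.95), so they are not separate results. Without shared barcodes the values were 0.59 (Ms4a7), 0.58 (Ms4a4c), 0.43 (Ms4a4a), 0.34 (Ms4a6c), 0.22 (Ms4a6b) and 0.16 (Ms4a6d). Without the 2 libraries of few cells, which leaves 1 MIA library, Ms4a7 (-0.55), Ms4a4a (-0.23), Ms4a6c (-0.04) and Ms4a6b (-0.03) were below 0. The 12 interferon-responsive genes had a median log2 fold change of 0.89, against 0.01 over all genes, with 0 called.

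At E15, 0 of 6 genes passed and 0% of 14020 genes were called (54 at an unadjusted p under 0.05, and 0 by DESeq2). The log2 fold changes were -0.31 ± 0.34 for Ms4a6c, -0.24 ± 0.18 for Ms4a6b, -0.11 ± 0.68 for Ms4a7, -0.11 ± 0.23 for Ms4a6d, -0.07 ± 0.37 for Ms4a4c and -0.06 ± 0.58 for Ms4a4a. Leaving out shared barcodes gave -0.37 for Ms4a6c, -0.27 for Ms4a6b, -0.19 for Ms4a7, -0.12 for Ms4a6d, -0.12 for Ms4a4a and -0.08 for Ms4a4c. With clusters of other cell types left out, the values of Ms4a7 (0.0415), Ms4a6d (0.0153), Ms4a4a (0.0467) and Ms4a4c (0.0118) turned above 0. Neuron markers summed to 1902 CPM in E15 MIA 1, against 143 to 499 CPM in the other E15 libraries, and 1485 of its cells were of other types. By this fit, which does not use replicate pairs, the 95% interval of Ms4a7 ran from -1.72 to 1.49. A change of that size in either direction could thus not be resolved by it, with 3 libraries a group. Between libraries of the same replicate number the log2 ratios of Ms4a7 were -0.47, 0.15 and 0.13. With replicate number in the fit, no call of these genes changed.

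At P14, 0 of the 5 genes tested passed and 0% of 13640 genes were called (417 at an unadjusted p under 0.05, none of them an Ms4a gene, and 1 gene by DESeq2, 0.00733%, no Ms4a gene). Ms4a4a had too few UMIs to be tested. Ms4a7 had a log2 fold change of -0.63 ± 0.48, which turned to 0.12 ± 0.63 without shared barcodes. Ms4a4c likewise went from -0.33 ± 0.37 to 0.04 ± 0.40. Ms4a6b (-0.13 ± 0.08), Ms4a6c (-0.05 ± 0.08) and Ms4a6d (0.13 ± 0.08) had the narrowest errors, and were at -0.13, -0.0060 and 0.14 without shared barcodes. The 95% interval of Ms4a6b ran from -0.32 to 0.07 and that of Ms4a6d from -0.07 to 0.33.

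The difference in the MIA effect between E13 and E15 was tested as an interaction over 12 libraries. It passed for 0 of 6 Ms4a genes and for 0% of 14408 genes (44 at an unadjusted p under 0.05, and 0 genes by DESeq2). Ms4a6c, higher after MIA in 3 of 3 pairs at E13 and in 0 of 3 at E15, had -0.64 ± 0.50 (adjusted p = 1, and -0.69 ± 0.54 without shared barcodes), and Ms4a7 had -0.69 ± 1.09 (-0.76 ± 1.19).

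**Figure D4:**
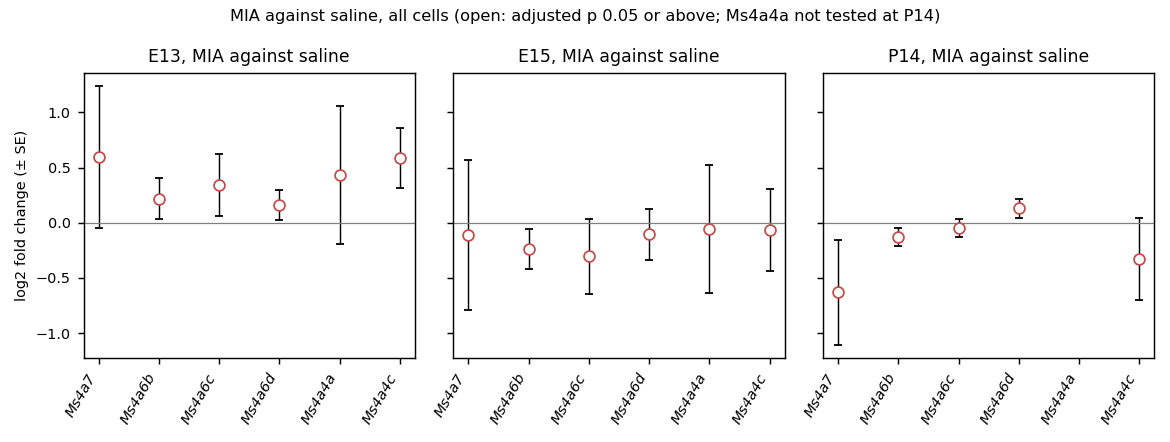
Log2 fold change of MIA against saline (vertical axis, with SE) for each gene at E13, E15 and P14, over all cells. Points are open since no adjusted p was under 0.05. They lie between 0.16 and 0.60 at E13, between -0.31 and -0.06 at E15 and on either side of 0 at P14, with Ms4a4a untested at P14.

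Which cells carried the UMIs was examined by clustering the cells of the embryonic and the P14 libraries without any Ms4a gene and without the shared barcodes. At E13 and E15, 2 clusters were named macrophage-like from border macrophage markers. One, of 1359 cells, was led by Mrc1 (the mannose receptor) and the chemokine receptor Ccr1. The other, of 177 cells, was led by Pf4, F13a1, Lyve1 and Dab2, and 74 of its cells came from E13 saline 1. Shares were taken per library, since a pooled share would weight libraries by their cells. Macrophage-like cells made up 1.31% to 13.3% of cells in the 12 embryonic libraries. They held 72.3%, 33.3% and 29.2% of the Ms4a7 UMIs in E13 saline 1 to 3 and 69.4%, 57.7% and 26.4% in E13 MIA 1 to 3. At E15 they held 58.5%, 73.8% and 63.7% after saline and 59.4%, 78.9% and 66.2% after MIA. Of Ms4a4a UMIs they held 19.6% to 87.5% per library. The group means were lower for the other genes, at 27.5% to 38.4% of Ms4a6c, 13.4% to 20.4% of Ms4a4c, 14.9% to 26.1% of Ms4a6b and 11.9% to 22.9% of Ms4a6d UMIs. Naming depended on the clustering, since at a resolution of 0.5 in place of 1 the larger cluster merged with microglia-like cells.

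Within the macrophage-like clusters, Ms4a7 had 153 to 447 CPM in the 12 embryonic libraries, and within microglia-like clusters 1.25 to 42.8 CPM, with no overlap. Ms4a6b, Ms4a6c, Ms4a6d and Ms4a4a did not overlap between these classes either, and Ms4a4c did. The classes were made from the expression of other genes, and the share of all genes that separate them is not given here. Nothing particular to the Ms4a genes is therefore read from the lack of overlap. The small Pf4-led cluster had more Ms4a7 than the Mrc1-led cluster, 556 to 978 CPM in the 4 libraries with at least 10 of its cells against 135 to 373 CPM in all 12. For Ms4a4c the order was the opposite, with 0 to 9.16 CPM against 12.4 to 47.6 CPM. These Ms4a4c levels rest on few UMIs. The Pf4-led cluster had 16 (E13 saline 1), 2 (E13 MIA 1), 1 (E15 saline 1) and 0 (E15 MIA 2). The 12.4 CPM of the Mrc1-led cluster in E15 MIA 3 came from 3 UMIs. Among microglia-like cells, a cluster of 543 cells led by Cxcl10, Ifit3 and Isg15, genes induced by interferon, had 94.5 CPM of Ms4a4c, 262 CPM of Ms4a6b and 223 CPM of Ms4a6c, and 25.2 CPM of Ms4a7. These are descriptions of clusters and were not tested.

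**Figure D5:**
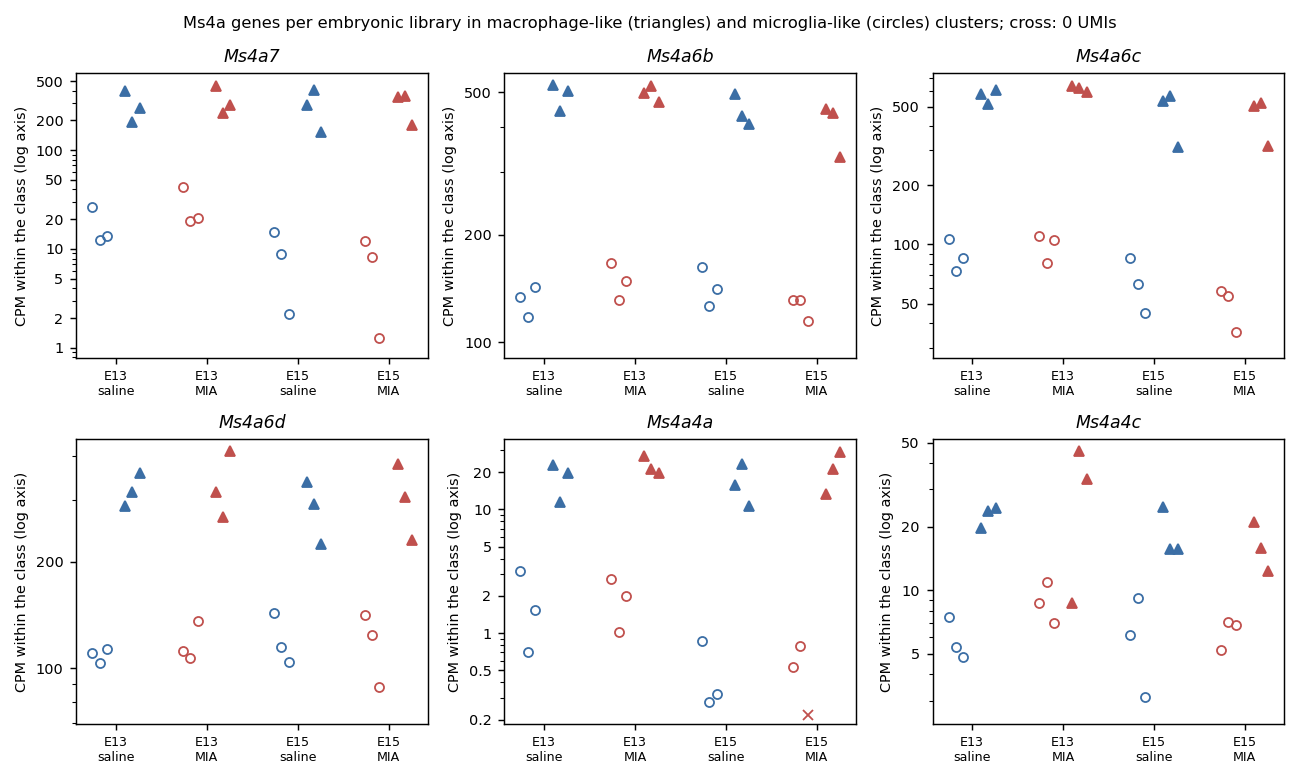
CPM within the class (vertical axis, log scale) of each gene in each embryonic library, for macrophage-like clusters (triangles) and microglia-like clusters (circles), blue for saline and red for MIA. Triangles lie above circles for each gene but Ms4a4c, where E13 MIA 1 (8.70 CPM in macrophage-like cells, 37 cells) falls among the circles.

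The share of macrophage-like cells was compared between treatments, by a test that could not pass 0.05. It was 12.6%, 2.71% and 1.31% in E13 saline 1 to 3 and 13.3%, 6.20% and 1.97% in E13 MIA 1 to 3 (difference of 1.61 percentage points, exact permutation test, two-sided p = 0.7, where the smallest possible was 0.1). MIA was higher in 3 of 3 pairs of the same replicate number, and the test does not use the pairs. At E15 it was 5.97%, 5.31% and 2.89% after saline and 3.84%, 6.66% and 1.46% after MIA (-0.73 points, exact permutation p = 0.7, adjusted p = 0.7 over both stages).

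In microglia-like cells at E13, Ms4a7 had 26.8, 12.4 and 13.6 CPM after saline and 42.8, 19.2 and 20.7 CPM after MIA. Each MIA library was above the saline library of the same number, while the groups overlapped. MIA 1 and MIA 2 had 185 and 191 such cells. By the test without pairs, the log2 fold change was 0.64 ± 0.33 (adjusted p = 1), and 0 of 6 Ms4a genes and 0% of 12096 genes were called (115 at an unadjusted p under 0.05, Ms4a4c among them, and 2 genes by DESeq2, 0.0165%, no Ms4a gene). At E13, deviations from the group means over 8019 genes correlated at 0.36, 0.13 and 0.46 between libraries of the same replicate number. Between libraries of unlike number, E13 saline 1 with MIA 2 had 0.27 and E13 saline 2 with MIA 3 had 0.24. The pairing of replicate 2 is thus weak, and the blocked result depends on the numbers being pairs. When replicate number entered the fit as a block, Ms4a7 was called at 0.63 ± 0.11 (adjusted p = 0.0209), as 1 of 8 genes (0.0661% of 12096). The blocked value was 0.64 in DESeq2 (adjusted p = 0.0485). Without pair 1 it was 0.58 and no longer passed (adjusted p = 0.206), and without pair 2 or pair 3 it was 0.65 (adjusted p of 0.00971 and 0.00434). These DESeq2 and leave-out fits were not planned. Those without a pair hold 2 pairs each, so their p-values lean on a spread shared over genes and are a weak check. At a resolution of 0.5 the blocked value was 0.67 (adjusted p = 0.0233), but there the class also holds the Mrc1-led macrophage-like cluster, so that value does not bear on microglia-like cells alone. In all cells the summed border macrophage markers were also higher after MIA in each pair (1996 and 2125 CPM, 647 and 1125 CPM, and 522 and 544 CPM for saline and MIA), as was the share of macrophage-like cells. Within the microglia-like cells 9 of the 11 border markers could be tested, 0 were called without the block and their median log2 fold change was 0.02. The part of these markers in the blocked result was not tested.

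In microglia-like cells at E15, Ms4a7 had 14.8, 8.92 and 2.22 CPM after saline and 11.9, 8.26 and 1.25 CPM after MIA (log2 fold change of -0.22 ± 0.82, with 0 of 6 genes and 0% of 12919 called, none of the 6 at an unadjusted p under 0.05, and 0 called by DESeq2). Replicate 3 was lowest in both groups, and each MIA library was below the saline library of the same number. The replicate block changed no call here. At P14 it had 1.32, 2.40, 0.357 and 2.45 CPM after saline and 1.18 and 1.15 CPM after MIA (-0.46 ± 0.58, 0 of 5 genes and 0% of 12375 called, none of the 5 at an unadjusted p under 0.05, and 0 of them by DESeq2, which called 0.00808% of genes). The sign of this P14 value was not stable, at 0.0378 with a resolution of 0.5 and 0.12 over all cells without shared barcodes. Unnamed cells, which the class leaves out, were 39.7% of cells in P14 saline with 0 Ms4a7 UMIs and 15.6% in P14 MIA with 1. In macrophage-like cells the log2 fold change of Ms4a7 after MIA was 0.16 ± 0.28 at E13 and 0.10 ± 0.32 at E15, with 0 of 6 genes called at either stage by edgeR or DESeq2 (0% of 8200 and of 9197 genes by edgeR) and none of the 6 at an unadjusted p under 0.05. Of the 235 macrophage-like cells in E13 saline and 185 in E13 MIA, the Pf4-led cluster held 115 in all, 74 of them in E13 saline 1.

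At P14 no cluster was named macrophage-like. The name required 2 border macrophage markers among the top 10 genes and a mean log2 ratio of all 11 markers to the remaining cells of at least 0.5, a threshold set after seeing the data. Clusters of 2813 and 2712 cells had Mrc1 and Ccr1 among their top 10 genes but a mean of 0.12 and 0.04, and were left unnamed. They held 1 and 0 Ms4a7 UMIs, and 13.6% to 47.8% of cells in the P14 saline libraries and 3.75% and 8.65% in P14 MIA 1 and 2. Of 28819 P14 cells without shared barcodes, 39 had an Ms4a7 UMI, and 18 of them with 3 or more held 144 of the 171 UMIs. Of the 18, all had UMIs of Mrc1 (20.5% of all P14 cells did) and Pf4 (0.524%), 13 of Dab2 (12.4%), 13 of F13a1 (0.128%), 17 of P2ry12 (98.8%), 15 of Tmem119 (96.8%) and 0 of Ccr2, a monocyte receptor (2.08%). Their median depth was 6968 UMIs, against 5289 over all P14 cells, and a doublet score marked 0 of the 18 and 4.15% of all P14 cells. These cells were picked by their Ms4a7 UMIs, so the shares are a description. They came from P14 saline 1 (2 cells), saline 2 (3), saline 3M (4), MIA 1 (4) and MIA 2 (5). Most Ms4a7 UMIs at P14 fell in a cluster of 1217 cells led by interferon-induced genes such as Ifitm3 and Ifit3 (102 UMIs, 13.98 CPM), followed by a cluster of 1608 cells led by the chemokines Ccl4 and Ccl3 (24 UMIs, 2.26 CPM) and a cluster of 133 dividing cells led by Hist1h1b, Top2a and Mki67 (21 UMIs, 20.0 CPM). The interferon-led and the dividing cluster had mean log2 ratios of the border markers of 0.85 and 0.58, above the threshold, and of the microglia markers of -0.04 and -0.44. They had 0 border markers among their top 10 genes and stayed in the microglia-like class, so any macrophages within them are counted there.

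Single cells showed the same division among the genes. In all cells, the share with at least 1 Ms4a6b UMI had medians of 48.7% to 59.9% in the 6 groups. For Ms4a7 the medians were 9.32% (E13 saline), 13.1% (E13 MIA), 6.25% (E15 saline), 5.48% (E15 MIA), 0.454% (P14 saline) and 0.347% (P14 MIA). Without shared barcodes the P14 medians were 0.0986% and 0.174%. With each cell thinned to 2000 UMIs, since depth differed, the Ms4a7 medians were 3.56%, 8.13%, 3.68%, 2.60%, 0.175% and 0.167% in the same order. The thinning left out 1501 of 6364 cells in E13 saline, 1504 of 7030 in E13 MIA, 1639 of 13680 in E15 saline, 1132 of 10874 in E15 MIA, 1256 of 19232 in P14 saline and 625 of 10667 in P14 MIA. As a background of free RNA, cells in clusters of other types (neurons and their progenitors, glia, endothelium) had Ms4a7 UMIs in 0% to 5.00% of cells per library and Ms4a6b UMIs in 4.55% to 13.4%, at median depths of 1766 to 4945 UMIs a cell. The 5.00% was 1 of 20 cells in E13 MIA 2, and the highest share in the other libraries was 2.00%. In the P14 libraries this background was 0% to 1.52%, and the P14 shares of Ms4a7 fall in that range and are not read as expression across the cells, whereas the shares of Ms4a6b are above their background. With cells thinned to the same depth, the Ms4a6b medians of the groups were 19.8% to 26.1%, against 0% to 12.1% of cells of other types per library. The lowest E15 shares of Ms4a7 in all cells, 2.32% in E15 saline 3 and 3.13% in E15 MIA 3, stood beside 1.01% (4 of 396 cells) and 0% (0 of 72, which allows up to 4.99% by the exact 95% interval) in other types of the same libraries. Pooled over a group, cells of other types had 2.31 and 3.14 CPM of Ms4a7 in E13 saline and MIA, against 15.5 and 21.8 CPM in microglia-like cells. At E15 they had 0.703 CPM against 8.91 CPM after MIA, and 8.41 CPM against 9.99 CPM after saline. The 8.41 CPM came from 46 UMIs in 6, 3 and 4 cells of E15 saline 1, 2 and 3, and whether these were free RNA or doublets was not tested. With cells thinned, 2.56%, 1.57% and 0.319% of microglia-like cells in these libraries had an Ms4a7 UMI, against 1.40%, 0.546% and 0.521% of other types. At P14 other types held 2 UMIs in 2 cells after saline and 6 UMIs in 1 cell after MIA, too few for a level. In macrophage-like cells, 67.3% to 86.5% of cells per library had an Ms4a7 UMI at E13 and 32.3% to 61.6% at E15. With cells thinned these ranges were 30.2% to 46.4% and 16.7% to 38.3% and overlapped, and the mean levels within the class were 287 and 324 CPM at E13 (saline and MIA) and 281 and 291 CPM at E15.

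The genes most like each member over the 18 libraries were found from the correlation of log2 CPM with 8015 other genes. They share stage, depth and library, so these values are a description. Ms4a7 was most like Folr2, a folate receptor of border macrophages (r = 0.97), Mpp1 (0.96) and Igfbp4 (0.95). Ms4a4c was most like Ifi204 (0.97), Axl (0.96) and Ifi207 (0.95), of which Ifi204 and Ifi207 belong to an interferon-inducible family. Ms4a4a was most like the integrin Itga4 (0.96), Ifi207 and Folr2, Ms4a6c like Pf4 (0.91), and Ms4a6d like Phyh (0.96). Ms4a6b had the loosest likeness, with Igfbp4 at 0.83. Among the members, Ms4a7 and Ms4a4a were most alike (0.95) and Ms4a6b and Ms4a4c least (0.59). Without shared barcodes the first gene was the same for Ms4a7 (0.97), Ms4a4c (0.98), Ms4a6d (0.96) and Ms4a6b (0.84). It changed to Ifi207 for Ms4a4a (0.97, with Itga4 no longer among the first 3) and to Aldh7a1 for Ms4a6c (0.91, with Pf4 next at 0.90).

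Some members resemble other genes where the reads fall. Of the 50-base stretches in the last 500 bases of the transcript, 13.8% in Ms4a6c and 11.8% in Ms4a4c also occurred in transcripts of other genes (for Ms4a4c those of Ms4a4b and Ms4a4d), and 0% in the other 4 members. Counts of Ms4a6c and Ms4a4c may therefore lack, or hold, reads of such copies, and how the counting treated them was not tested.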

How the data were processed

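Per the labels, the authors aligned 3′ single-cell reads to mm10 with Cell Ranger 3.1.0 and deposited UMI counts per gene and cell for each library. Counts were summed per library over cells that had 500 or more genes and no more than 20% of UMIs from mitochondrial genes. edgeR 4.0.16 (quasi-likelihood test, TMM, filter on low counts) gave the main fits, with DESeq2 1.42.0 as an alternative, and p-values were adjusted over all genes tested. Treatment was compared within a stage, and stages within a treatment. Cells were clustered with scanpy 1.11.5 (Leiden, resolution 1) without Ms4a genes or shared barcodes. Doublets were not removed in the main fits. The 6 genes named, and all gene lists, were chosen with earlier results of these data known. Libraries of the same replicate number had correlations of 0.36, 0.13 and 0.46 at E13 and of 0.51, 0.40 and 0.60 at E15. At E13 libraries of unlike number reached 0.27, so the pairing of replicate 2 is weak there. Sex and batch were not fitted, since all but 2 libraries are labelled as mixed sex and the labels give no batch. The fits were also run on simulated counts with the same spread for every gene, unlike the real data, and nothing on the Ms4a genes is drawn from that. Nuclei libraries were not used here. Floors cover counting error only, while 95% intervals of fold changes rest on the spread between libraries (edgeR's SE and degrees of freedom).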

Additional observations from a re-analysis of the deposited data

Results flagged for a closer look

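Ms4a6c in P14 saline 3F, without shared barcodes, was at 70.33 CPM and stood farther from the other 3 P14 saline libraries than a test for single outlying values allows at its 95% level. It was 1 such value in 12 tests of this 1 group (6 genes, with and without shared barcodes, which overlap), and chance gives about 1 in 20. Its gap was 0.924 of the range of the group, and with all cells it was 0.635, which did not pass.

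Ms4a6c was higher after MIA in all 3 E13 pairs and lower in all 3 E15 pairs, with a mean difference between stages of -0.65 on the log2 scale. The E15 pairs had log2 ratios of -0.73, -0.0050 and -0.0483, so the size of the difference at E15 rests on pair 1. How many of all genes show this pattern was not counted. The interaction of stage and treatment did not pass the test (-0.64 ± 0.50, edgeR adjusted p = 1).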

How the results depend on the processing

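Over the alternatives run, 182 of 194 counts of called Ms4a genes equalled the reported count or were within 1.5 times of it. In most comparisons the reported count was 0, mostly with 0% of all genes called, so these counts had little room to move and say little on stability. Of 907 fold changes 842 kept their direction and side of the threshold. Of 52 values for shares of cells, 29 moved by more than the spread between libraries, 3 turned sign and 20 did neither. These values include shares in thinned cells, and thinning by itself lowers the share of cells with a UMI. The count of 29 therefore cannot show how stable the shares are. The 3 that turned sign were differences in the share of macrophage-like cells with 1 library left out. From E13 to E15 after MIA, DESeq2 called 2 genes, and leaving out 1 library at a time gave 0 to 1. Leaving out both E13 MIA libraries of few cells leaves 1 library in that group, so no count is given for it. From E15 to P14 after MIA, leaving out 1 library gave 1 to 4. In E13 microglia-like cells the replicate block called 1 gene, also with DESeq2, at resolution 0.5 and without replicate 2 or 3, and 0 without replicate 1. The fits without a replicate hold 2 pairs each and are a weak check, and the share of all genes they called is not given here. Across stages the numbers did not pair the libraries. There the block took the genes called from 2213 to 796 (MIA, E13 to E15) and from 3984 to 2406 (MIA, E15 to P14). The block changed no other call of an Ms4a gene.

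Values below are log2 fold changes that turned sign, and their cause was not tested. With both E13 libraries of few cells left out, MIA against saline at E13 gave -0.55 for Ms4a7, -0.0256 for Ms4a6b, -0.0403 for Ms4a6c and -0.23 for Ms4a4a. With other cell types left out, E15 gave 0.0415 for Ms4a7, 0.0153 for Ms4a6d, 0.0467 for Ms4a4a and 0.0118 for Ms4a4c. The same setting gave 0.0312 for Ms4a6b and 0.0533 for Ms4a4c from E13 to E15 after saline, and 0.0059 for Ms4a6d after MIA. Without shared barcodes, P14 gave 0.12 for Ms4a7 and 0.0392 for Ms4a4c. Resolution 0.5 gave 0.0378 for Ms4a7 in P14 microglia-like cells. Library totals gave 0.0561 for Ms4a6b from E15 to P14 after MIA. The block gave 0.0016 for Ms4a6c at P14, and no filter gave 0.00017 for Ms4a4c from E13 to E15 after saline.

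Leaving out 1 library gave ranges on both sides of 0. For Ms4a7 they were -0.26 to 1.61 at E13, -0.68 to 0.24 at E15, -0.99 to 0.34 from E13 to E15 after saline, -1.73 to 0.13 for the interaction, -0.83 to 0.47 in E15 microglia-like cells, and -0.14 to 0.47 and -0.19 to 0.45 in E13 and E15 macrophage-like cells. For Ms4a6b they were -0.21 to 0.10 (saline, E13 to E15) and -0.13 to 0.0495 (MIA, E15 to P14), and for Ms4a6d -0.29 to 0.0705 (E15) and -0.17 to 0.19 (saline, E13 to E15). For Ms4a4a they were -0.11 to 1.39 (E13), -0.72 to 0.18 (E15) and -1.49 to 0.0416 (interaction), and for Ms4a4c -0.40 to 0.20 (E15) and -0.28 to 0.28 (saline, E13 to E15). The difference in the share of macrophage-like cells ran from -1.45 to 5.13 points at E13 and from -2.07 to 0.53 at E15. Macrophage-like cells at resolution 0.5 and at P14 could not be fitted.

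Depth limits Ms4a4a most, with 18 UMIs at P14, then Ms4a4c and Ms4a7 with 296 and 403 (fewer without shared barcodes).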
